A study of Homo sapiens with 12 samples.

Results

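The genes described here are 42 named genes of the PI3K, AKT and mTOR pathway: subunits of phosphoinositide 3-kinase (PI3K), insulin receptor substrates, the AKT kinases with their activator PDPK1, subunits of the mTOR complexes mTORC1 and mTORC2, the TSC, GATOR1, Rag and Ragulator proteins around mTORC1, and proteins that AKT or mTORC1 hold in check. They were taken by name and matched to the Ensembl identifiers of the count tables. The list sets no threshold on a measured value, but it was chosen with earlier results of these data known. All 42 were found among the 63677 genes listed, and all 42 were among the 21325 genes with enough counts to be tested. Of these, 24 activate the pathway, 12 inhibit it and 6 are targets that it restrains.

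RNA was sequenced from MDA-MB-468, SUM149PT and HCC38, established cell lines of basal-like breast cancer, a class of breast tumor that mostly lacks hormone receptors. In each line, the knock-down group received LNA1 and LNA2 together, which are antisense LNA GapmeRs (oligonucleotides with locked nucleic acids) against the lncRNA of the gene LINC01956 (ENSG00000258910). The control group received LNA NS, which targets no transcript, and both groups were transfected at seeding with a final LNA concentration of 50 nM, given fresh medium after 6 h and collected at 24 h. Each of the 6 groups held 2 libraries of poly-A selected RNA, 12 in all. Whether a group's libraries are separate cultures is stated in no source used here, so the p-values measure the spread between these libraries, which may be technical. LNA1 and LNA2 were given together, so their effects cannot be told apart. Nor can loss of the lncRNA be told apart from other effects of these LNAs. According to the study's methods, SUM149PT was grown in a medium with insulin and hydrocortisone, which are not listed for the media of the other lines, so cell line and medium cannot be told apart at baseline. In bulk RNA, fewer cells of a kind and less RNA per cell cannot be told apart either.

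In this pathway, growth factor receptors and insulin receptor substrates bring PI3K to the membrane, where it makes a lipid signal that recruits AKT. PDPK1 and mTORC2 then phosphorylate AKT, which holds back FOXO transcription factors, GSK3 and the TSC complex, and TSC in turn is the brake on RHEB, the direct activator of mTORC1. Rag GTPases bring mTORC1 to the lysosome when amino acids are present, GATOR1 turns them off, and active mTORC1 drives S6 kinases and cap-dependent translation while it blocks autophagy through ULK1. Most of this signaling runs through phosphorylation, which mRNA counts do not measure.

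Of the members that passed the test in all 3 lines, the pair with the largest mean rise (FOXO4 and ULK1) and the pair with the largest mean fall (RPTOR and TSC2) are shown by their promoters. The windows hold 250 bases before to 50 after the start of the gene, 5′ to 3′, on the plus strand in each case, from RefSeq on GRCh38.p14, whereas the counts were made on GRCh37. They lie at chrX:71095601-71095900 for FOXO4, chr12:131894372-131894671 for ULK1, chr17:80544588-80544887 for RPTOR and chr16:2047735-2048034 for TSC2. Capitals mark a FOXO core (GTAAACA or its reverse complement TGTTTAC) and an E-box (CACGTG, a palindrome), which were searched on both strands.
FOXO4: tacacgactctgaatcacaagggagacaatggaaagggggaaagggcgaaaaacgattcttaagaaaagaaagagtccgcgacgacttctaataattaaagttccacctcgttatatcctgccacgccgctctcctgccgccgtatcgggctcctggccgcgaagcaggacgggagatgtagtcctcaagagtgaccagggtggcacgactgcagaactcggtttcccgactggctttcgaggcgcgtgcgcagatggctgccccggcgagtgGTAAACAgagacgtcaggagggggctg
ULK1: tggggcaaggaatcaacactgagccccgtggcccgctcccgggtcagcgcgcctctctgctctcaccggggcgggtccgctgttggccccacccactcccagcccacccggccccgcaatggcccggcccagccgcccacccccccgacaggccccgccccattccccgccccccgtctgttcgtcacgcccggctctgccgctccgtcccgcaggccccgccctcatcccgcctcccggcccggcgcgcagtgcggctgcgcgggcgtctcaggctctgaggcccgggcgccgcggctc
RPTOR: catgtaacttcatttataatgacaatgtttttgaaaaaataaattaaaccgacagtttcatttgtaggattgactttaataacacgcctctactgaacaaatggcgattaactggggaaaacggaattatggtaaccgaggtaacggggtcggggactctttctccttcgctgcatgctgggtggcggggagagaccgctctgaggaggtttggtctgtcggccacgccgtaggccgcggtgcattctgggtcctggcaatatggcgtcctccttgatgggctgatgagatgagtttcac
TSC2: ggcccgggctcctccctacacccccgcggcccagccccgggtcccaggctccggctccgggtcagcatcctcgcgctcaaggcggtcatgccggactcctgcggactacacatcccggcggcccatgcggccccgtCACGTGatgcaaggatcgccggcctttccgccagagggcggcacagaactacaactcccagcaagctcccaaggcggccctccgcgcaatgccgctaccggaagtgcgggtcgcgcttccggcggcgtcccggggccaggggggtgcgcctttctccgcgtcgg
The FOXO core of FOXO4, itself a FOXO factor, lay from base 24 to base 30 after the start, and the E-box of TSC2 from base −114 to base −109. Neither ULK1 nor RPTOR held either of these sequences in the window, nor an E2F sequence (TTTGGCGC, TTTCCCGC, TTTGCCGC or TTTCGCGC on either strand). RefSeq windows matched 37 of the 42 members. The FOXO core stood in 2 of them (5.41%), FOXO4 and PIK3CA, against 3.59% of the 13387 matched genes tested. An E-box stood in 7 (18.9%) against 11.8%, and an E2F sequence in 1 (2.70%), IRS2, against 5.99%. The median GC content was 64% in the members and in all matched genes alike.

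The libraries held 32187835 to 56191152 counts in genes. The targeted lncRNA LINC01956 had 29 and 23 counts in MDA-MB-468 under LNA NS and 1 and 1 after knock-down. It went from 10.7 and 11.2 CPM (counts per 1e+06 counts of the library, TMM-normalized) to 0.576 and 0.416 in SUM149PT and from 14.6 and 15.1 to 1.48 and 2.05 in HCC38, so the LNA NS and knock-down libraries did not overlap in any line. The basal epithelial markers fixed for the lines were KRT5, KRT6A, KRT6B, KRT14, KRT17, EPCAM, CDH1 and EGFR. Of these, KRT14 and KRT17 were at 0.479 and 0.551 CPM on average in HCC38 under LNA NS, whereas EPCAM was at 453. The summed level of the 8 basal epithelial markers lay below the LNA NS range after knock-down in MDA-MB-468 (5533 to 5861 CPM against 8421 to 9169, with EGFR the largest part), SUM149PT (4472 to 4660 against 5234 to 5386) and HCC38 (888.3 to 954.4 against 972.8 to 996.9). In HCC38 the largest parts of the sum were EPCAM and CDH1, and neither passed the test there (edgeR adjusted p = 0.983 and 0.136). Of the 8 markers 4 rose and 2 fell in MDA-MB-468, 1 rose and 3 fell in SUM149PT, and 4 rose (KRT6A, KRT6B, KRT14 and KRT17) and 1 fell (KRT5) in HCC38. Of the 4 mesenchymal markers (VIM, ZEB1, FN1 and CDH2), 2 rose in MDA-MB-468 and 2 in SUM149PT, and in HCC38 1 rose and 1 fell; their summed level was above the LNA NS range in each line, at 65.3 to 71.7 CPM against 52.5 to 53.4 in MDA-MB-468. CDH5, an endothelial marker, went from 1.70 and 2.31 to 6.97 and 6.38 CPM in MDA-MB-468. It also rose in SUM149PT, from 0.24 and 0.42 to 2.08 and 2.23 CPM, and did not pass the test in HCC38 (edgeR adjusted p = 0.843). Of the 5 immune markers, CD14 alone was abundant enough to be tested. It fell in MDA-MB-468 (−0.78 on the log2 scale, edgeR adjusted p = 5.6e-04) and SUM149PT (−0.68, 0.00465), where the summed immune markers went from 12.0 to 13.9 CPM down to 7.32 to 8.15 and from 6.29 to 7.58 down to 4.34 to 4.41, whereas the T cell marker CD3E was at 0 CPM in all LNA NS groups. Of 3 tested luminal markers 2 fell in MDA-MB-468, and in each of the other lines 1 rose and 1 fell. Of 3 fibroblast markers 1 fell in MDA-MB-468 and 1 in SUM149PT. The part of these markers in the results was not tested.

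A member was called where its adjusted p was under 0.1 (edgeR's quasi-likelihood test, Benjamini-Hochberg over all 21325 genes). After knock-down, 20 members fell and 9 rose in MDA-MB-468, against 25.7% and 24.9% of all genes tested (50.6% either way). In SUM149PT, 16 fell and 8 rose (18.0% and 20.0% of all genes, 38.0% either way), and in HCC38, 15 fell and 5 rose (18.4% and 15.5%, 34.0% either way). The median log2 fold change of the members was −0.39, −0.10 and −0.20 in these lines, against 0.00, 0.03 and 0.01 for all genes. With the trend of each library's counts with gene length removed, the medians of the members became 0.001, 0.004 and −0.002, against 0.088, 0.067 and 0.078 for all genes. The share of rises among all calls in HCC38 was 45.8% as tested and 57.9% with the trend removed. On average over the 3 lines, 20 members fell and 10 rose, against 26.5% and 28.4% of all genes (54.8% either way). By class, 12 of 24 activating members fell and 5 rose on average, 8 of 12 inhibiting members fell and 1 rose (PHLPP2), and of the 6 restrained targets none fell and 4 rose. The difference between the classes was not tested.

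**Figure D1:**
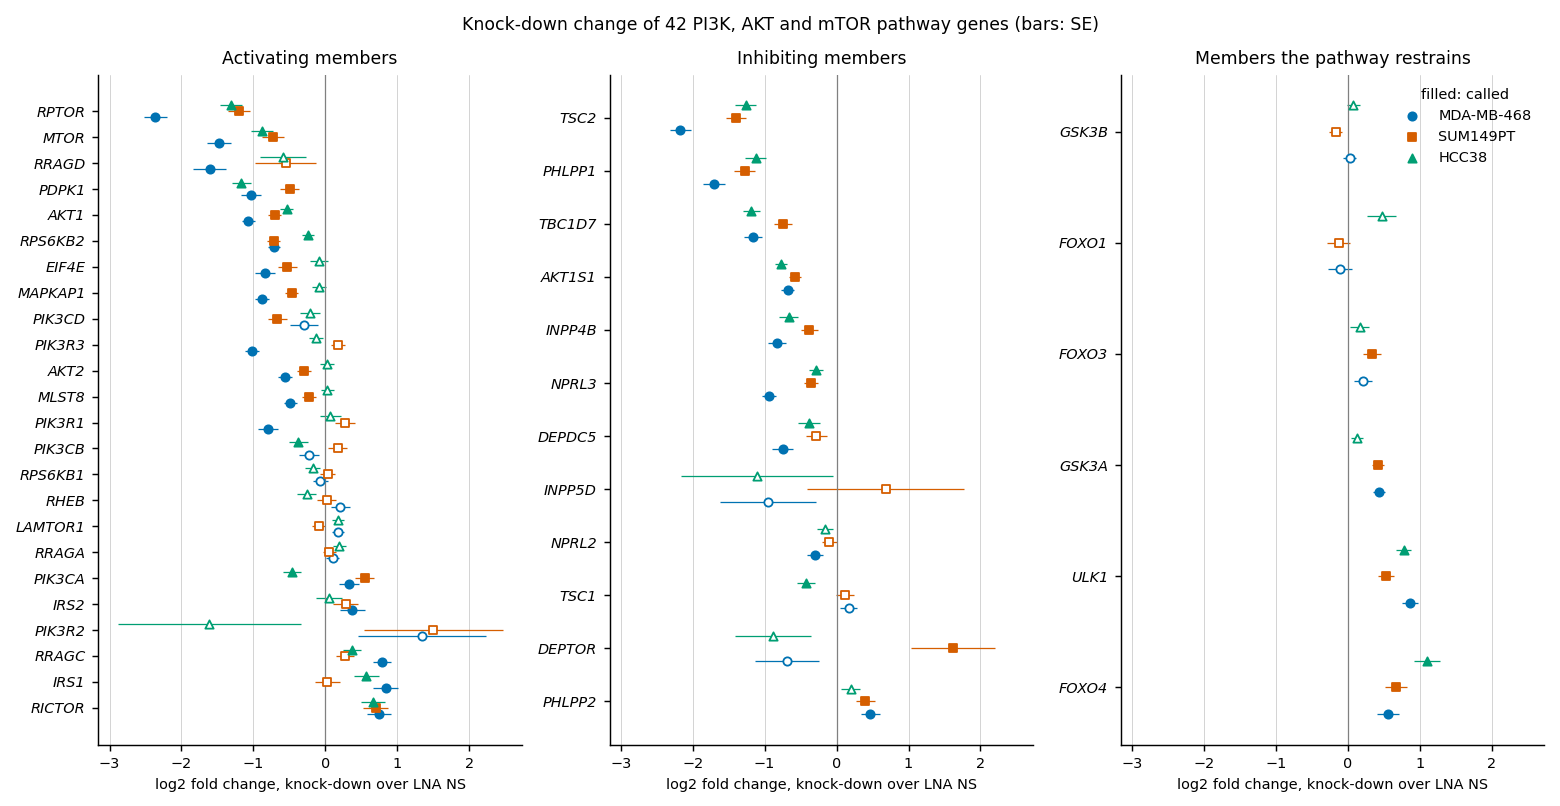
Log2 fold change of each member after knock-down (horizontal axis, ± standard error) in MDA-MB-468 (circles), SUM149PT (squares) and HCC38 (triangles), with called values filled. Points to the left of 0 are lower after knock-down; RPTOR and TSC2 stand farthest left and FOXO4, ULK1 and RICTOR stand to the right in all 3 lines.

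Of the members, 11 fell in all 3 lines (8.74% of all genes did): AKT1, PDPK1, MTOR, RPTOR, RPS6KB2, INPP4B, PHLPP1, TSC2, TBC1D7, AKT1S1 and NPRL3, although INPP4B turned to a rise in each line with the gene length trend removed. RICTOR, FOXO4 and ULK1 rose in all 3 lines (6.60% of all genes). A called change of over 2-fold in at least 1 line was found for 11 members, against 28.0% of all genes. In MDA-MB-468, 9 members fell by more than that and 0 rose, against 2341 and 1965 of the 21325 genes (20.2% either way). In SUM149PT, 3 fell and 1 rose, against 920 and 1345 of all genes (10.6% either way). In HCC38, 5 fell and 1 rose, against 940 and 1057 (9.36% either way). The smallest of these changes of members was that of PIK3R3 in MDA-MB-468, with an absolute log2 fold change of 1.02. The largest value under the threshold was that of NPRL3 in the same line, 0.94. The 7 members called in no line and not on average were PIK3R2, RHEB, LAMTOR1, RPS6KB1, INPP5D, FOXO1 and GSK3B, of which RHEB, LAMTOR1, FOXO1 and GSK3B passed in at least 1 line under another setting.

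At the top of the pathway, PIK3CA, the catalytic subunit often mutated in breast cancer, was the 1 member called in opposite directions (3.72% of all genes were). In MDA-MB-468, PIK3CA stood at 12.6 and 11.06 CPM under LNA NS and at 14.96 and 14.66 after knock-down. In SUM149PT, PIK3CA went from 14.3 and 15.6 CPM to 23.9 and 19.8. In HCC38, PIK3CA went from 31.1 and 29.5 CPM to 24.0 and 19.9. The groups did not overlap in any line, with the knock-down libraries above LNA NS in the first pair of lines and below it in HCC38. Its log2 fold changes, in that order of lines, were 0.33, 0.55 and −0.46 (edgeR adjusted p = 0.0609, 0.00504 and 0.0140), and the lines differed (edgeR adjusted p = 0.00262 for the difference). The call in MDA-MB-468 was lost without KD replicate 1 (adjusted p = 0.184), KD replicate 2 (0.144) or LNA NS replicate 2 (0.348), and that in HCC38 without KD replicate 2 (0.163) or with the gene length trend removed (−0.25, adjusted p = 0.140), where MDA-MB-468 had 0.57 (edgeR adjusted p = 0.00152). PIK3CB, the other broadly used catalytic subunit, fell in HCC38 (log2 fold change −0.37, edgeR adjusted p = 0.0521), a call lost without LNA NS replicate 1 (0.254) or KD replicate 2 (0.241) and with the gene length trend removed (0.05, adjusted p = 0.7998). PIK3CB had −0.23 in MDA-MB-468 and 0.17 in SUM149PT, which did not pass. With the gene length trend removed it passed as a rise in both, at 0.43 and 0.40 (edgeR adjusted p = 0.0111 and 0.0220), whereas it passed as a fall in MDA-MB-468 without LNA NS replicate 2 (−0.38, 0.0974) and as a rise in SUM149PT without KD replicate 2 (0.38, 0.0717).

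PIK3CD, the catalytic subunit best known from leukocytes, was most abundant in SUM149PT, where it went from 57.4 and 53.6 CPM to 36.9 and 33.0 after knock-down. In MDA-MB-468, PIK3CD was at 2.22 and 2.95 CPM under LNA NS and at 2.37 and 1.84 after knock-down. In HCC38, PIK3CD was at 17.1 and 19.5 against 16.9 and 14.5 CPM. Only in SUM149PT did it pass the test, with a log2 fold change of −0.67 (edgeR adjusted p = 0.00139), against −0.30 in MDA-MB-468, where the groups overlapped, and −0.22 in HCC38. The difference between lines did not pass (edgeR adjusted p = 0.192). PIK3R3, a regulatory subunit that holds the catalytic subunits at the receptor, was the member with the plainest difference between lines (edgeR adjusted p = 8.5e-05). In MDA-MB-468, PIK3R3 went from 180.6 and 182.2 CPM to 92.6 and 86.8. In SUM149PT it was at 27.5 and 27.7 CPM against 33.2 and 28.8, and in HCC38 at 34.7 and 34.6 against 33.3 and 30.2. It thus fell in MDA-MB-468 (log2 fold change −1.02, standard error 0.0946, edgeR adjusted p = 4.0e-07), while the values of 0.17 in SUM149PT and −0.12 in HCC38 did not pass. PIK3R1, the main regulatory subunit, likewise fell in MDA-MB-468 (−0.80, edgeR adjusted p = 1.7e-04) and had 0.27 and 0.07 in SUM149PT and HCC38 (0.00242 for the difference between lines). PIK3R2 held 0 to 11 counts per library, 6 libraries at 3 or fewer, and 76.4% of its exon bases are shared on the same strand with another gene (ENSG00000268173), whose part in the low counts was not tested. The insulin receptor substrates, which link the insulin and IGF receptors to PI3K, went up where they were called. IRS1 rose in MDA-MB-468 (0.84, edgeR adjusted p = 9.3e-04) and in HCC38 (0.57, 0.0215), the latter lost without LNA NS replicate 1 (0.251) or KD replicate 1 (0.238), and had 0.03 in SUM149PT. IRS2 rose in MDA-MB-468 (0.38, edgeR adjusted p = 0.0880) and on average (0.24, 0.0647), calls lost in 5 and 6 of the 12 fits that left out 1 library, with adjusted p up to 0.571 (without LNA NS replicate 1 of MDA-MB-468) and 0.307 (without KD replicate 1 of HCC38). Its value in MDA-MB-468 was 0.17 in the former fit and 0.59 without LNA NS replicate 2.

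AKT1, the most widely expressed AKT kinase, fell in every line. In MDA-MB-468, AKT1 went from 250.7 and 274.7 CPM to 130.9 and 118.8. In SUM149PT, AKT1 went from 236.3 and 215.8 CPM to 138.3 and 139.6. In HCC38, AKT1 went from 208.0 and 230.6 CPM to 149.5 and 152.4. All 6 knock-down libraries lay below all 6 LNA NS libraries. Log2 fold changes were −1.07, −0.70 and −0.54 (edgeR adjusted p = 1.5e-07, 2.9e-05 and 3.5e-04), with a difference between lines (0.0158). AKT2 fell in MDA-MB-468 (−0.56, edgeR adjusted p = 2.7e-04) and in SUM149PT (−0.30, 0.0327), the latter lost without LNA NS replicate 1 (0.207) or KD replicate 2 (0.154), and had 0.03 in HCC38. PDPK1, the kinase that phosphorylates the activation loop of AKT, also fell in every line. In MDA-MB-468, PDPK1 went from 15.7 and 17.0 CPM to 8.72 and 7.27. In SUM149PT, PDPK1 went from 26.7 and 25.4 CPM to 19.0 and 18.0. In HCC38, PDPK1 went from 32.3 and 40.1 CPM to 16.9 and 15.4. No line had overlapping groups, and the smallest change was that of SUM149PT. Its log2 fold changes were −1.03, −0.49 and −1.17 (edgeR adjusted p = 1.5e-05, 0.00859 and 8.2e-06; 0.0289 for the difference between lines).

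Of the lipid and AKT phosphatases, which oppose PI3K and AKT, PHLPP1 had the largest change. PHLPP1, which removes a phosphate from AKT, went from 17.7 and 19.5 CPM to 5.85 and 5.58 in MDA-MB-468. In SUM149PT, PHLPP1 went from 32.5 and 26.5 CPM to 13.4 and 10.8. In HCC38, PHLPP1 went from 46.7 and 59.9 CPM to 24.7 and 24.2. The groups were apart in each line. On the log2 scale the fold changes were −1.70, −1.28 and −1.13 (edgeR adjusted p = 3.5e-07, 1.1e-05 and 2.7e-05), and with the gene length trend removed they were −0.76, −0.88 and −0.54 (edgeR adjusted p = 7.3e-05, 2.2e-05 and 0.00170). PHLPP2, its close relative, went the other way: it rose in MDA-MB-468 (0.47, edgeR adjusted p = 0.00839) and SUM149PT (0.40, 0.0289) and had 0.19 in HCC38. The first call was lost without LNA NS replicate 1 (adjusted p = 0.140), the second without KD replicate 1 (0.151) or LNA NS replicate 2 (0.196). INPP4B, a phosphatase of PI3K lipid products whose loss is frequent in basal-like breast cancer, had log2 fold changes of −0.83, −0.38 and −0.67 (edgeR adjusted p = 4.2e-05, 0.0235 and 0.00141). These calls depend on the treatment of gene length: INPP4B spans 824273 bp, more than any other member, and with the trend removed its log2 fold changes were 0.98, 0.53 and 0.36 (edgeR adjusted p = 1.0e-06, 7.4e-04 and 0.0308). The call in SUM149PT was also lost without LNA NS replicate 1 (adjusted p = 0.378) or KD replicate 2 (0.194). INPP5D, the lipid phosphatase SHIP of blood cells, was at 0.768 and 0.452 CPM in MDA-MB-468 under LNA NS and at 0.391 and 0.235 after knock-down. In SUM149PT, INPP5D was at 0.0536 and 0.0652 CPM against 0.0372 and 0.178, and in HCC38 at 0.0655 and 0.123 against 0.0732 and 0. At 0 to 28 counts per library, no difference was detectable at this depth (edgeR adjusted p = 0.272, 0.696 and 0.488).

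**Figure D2:**
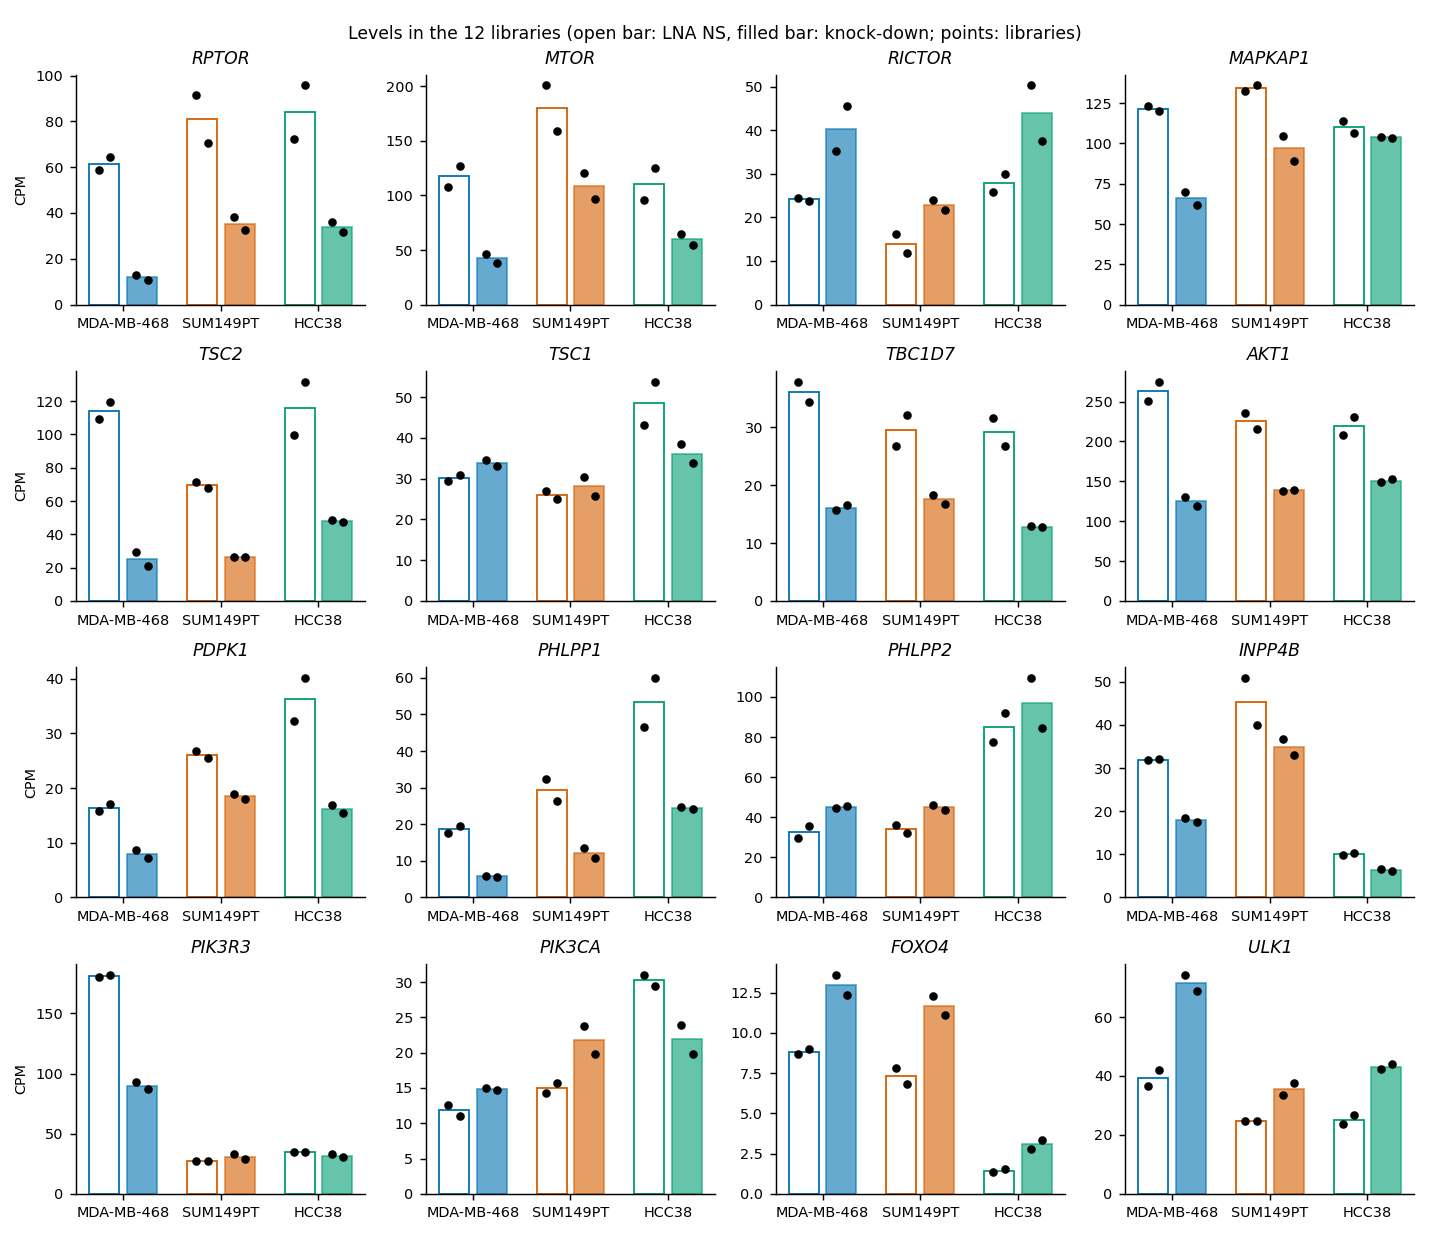
Levels of 16 members in CPM (vertical axis) for LNA NS (open bars) and knock-down (filled bars) in the 3 lines, with a bar at the mean and a point for each of the 2 libraries. The points of RPTOR, MTOR, TSC2, TBC1D7, AKT1, PDPK1 and PHLPP1 fall below those of LNA NS in each line, those of RICTOR, FOXO4 and ULK1 rise above them, and PIK3R3 falls in MDA-MB-468.

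Of the mTOR complex subunits, RPTOR had the lowest mean log2 fold change of all members (−1.62), with TSC2 within the standard error of it (−1.61). RPTOR, or Raptor, presents substrates to mTORC1. In MDA-MB-468, RPTOR went from 58.6 and 64.3 CPM to 13.1 and 10.8. In SUM149PT, RPTOR went from 91.7 and 70.5 CPM to 38.3 and 32.4. In HCC38, RPTOR went from 72.1 and 95.7 CPM to 35.9 and 31.8. Every knock-down library lay below every LNA NS library of any line. The log2 fold change was −2.36, −1.20 and −1.31 (edgeR adjusted p = 2.0e-08, 3.1e-05 and 1.5e-05; 0.00260 for the difference between lines). RPTOR spans 421553 bp, and with the gene length trend removed its values were −1.07, −0.58 and −0.54 (edgeR adjusted p = 3.8e-07, 2.9e-04 and 7.5e-04). MTOR, the kinase common to both complexes, fell with it. In MDA-MB-468, MTOR went from 108.1 and 127.3 CPM to 46.6 and 37.9. In SUM149PT, MTOR went from 200.8 and 158.8 CPM to 120.2 and 97.2. In HCC38, MTOR went from 95.9 and 125.1 CPM to 64.98 and 54.96. The groups were apart in each line. Its log2 fold changes were −1.48, −0.73 and −0.88 (edgeR adjusted p = 2.0e-06, 0.00220 and 6.2e-04; 0.0426 for the difference between lines), and −0.93, −0.55 and −0.51 with the gene length trend removed, where each still passed (adjusted p up to 0.00244).

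RICTOR, the subunit that takes the place of RPTOR in mTORC2, moved the other way: it rose in MDA-MB-468, SUM149PT and HCC38 with log2 fold changes of 0.74, 0.70 and 0.66 (edgeR adjusted p = 0.00176, 0.00561 and 0.00752). The call in HCC38 was lost without KD replicate 1 (0.41, adjusted p = 0.145). With the gene length trend removed the values were 1.21, 0.84 and 0.98. MAPKAP1, the mTORC2 subunit SIN1, fell in MDA-MB-468 (−0.88, edgeR adjusted p = 2.2e-06) and SUM149PT (−0.47, 0.00149) and had −0.09 in HCC38. Neither call held with the gene length trend removed (0.07 and −0.07, adjusted p = 0.656 and 0.655), where HCC38 instead had 0.50 (edgeR adjusted p = 0.00174) and the mean went from −0.48 to 0.16 (0.0307). MLST8, a subunit of both complexes, fell in MDA-MB-468 (−0.49, edgeR adjusted p = 5.7e-04) and, as a call lost without any 1 of the 4 libraries of that line (adjusted p up to 0.330 without LNA NS replicate 2) or with the gene length trend removed (0.133), in SUM149PT (−0.23, 0.0808). Of the 2 inhibitory subunits, AKT1S1, or PRAS40, fell in all lines, with log2 fold changes of −0.68, −0.58 and −0.77 (edgeR adjusted p = 8.0e-06, 9.1e-05 and 7.0e-06). DEPTOR, which binds the mTOR kinase, was scarce, at 4 to 90 counts per library. In MDA-MB-468, DEPTOR was at 1.18 and 2.39 CPM under LNA NS and at 1.15 and 1.06 after knock-down. In SUM149PT, DEPTOR was at 0.107 and 0.424 against 0.576 and 1.04 CPM. In HCC38, DEPTOR was at 0.590 and 0.635 against 0.403 and 0.242 CPM. The knock-down libraries were above LNA NS in SUM149PT and below it in the other lines. It rose in SUM149PT (log2 fold change 1.62, standard error 0.579, edgeR adjusted p = 0.0444), a value that was 0.89 without LNA NS replicate 1 (adjusted p = 0.341), 1.18 without KD replicate 2 (0.238) and 2.84 without LNA NS replicate 2 (0.0128). The −0.69 and −0.88 of MDA-MB-468 and HCC38 did not pass.

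Of the 3 subunits of the TSC complex, the brake on mTORC1, TSC2 and TBC1D7 fell in each line. TSC2, the subunit that acts on RHEB, went in MDA-MB-468 from 109.1 and 119.3 CPM to 29.3 and 21.3. In SUM149PT, TSC2 went from 71.7 and 67.7 CPM to 26.3 and 26.7. In HCC38, TSC2 went from 99.8 and 131.6 CPM to 48.7 and 47.5. Every knock-down library was below every LNA NS library. In log2 fold change this was −2.18, −1.40 and −1.27 (edgeR adjusted p = 1.4e-08, 3.3e-06 and 8.0e-06; 0.00702 for the difference between lines), and the mean of −1.61 was −1.59 with the gene length trend removed. TBC1D7, the third subunit of the complex, went in MDA-MB-468 from 37.9 and 34.5 CPM to 15.7 and 16.6. In SUM149PT, TBC1D7 went from 26.9 and 32.1 CPM to 18.3 and 16.8. In HCC38, TBC1D7 went from 31.6 and 26.8 CPM to 12.9 and 12.8. Again no knock-down library reached an LNA NS library. For TBC1D7 the log2 fold changes were −1.17, −0.74 and −1.18 (edgeR adjusted p = 1.6e-06, 2.9e-04 and 4.9e-06). TSC1, the scaffold of the complex, had 0.17 and 0.11 in MDA-MB-468 and SUM149PT and fell in HCC38 (−0.42, edgeR adjusted p = 0.0164), a call lost without LNA NS replicate 2 (0.222) or KD replicate 2 (0.153). The lines differed (edgeR adjusted p = 0.0316). RHEB had 0.21, 0.02 and −0.26, and its groups overlapped in each line. It passed in HCC38 without LNA NS replicate 2 (−0.44, edgeR adjusted p = 0.0324) and in MDA-MB-468 with the gene length trend removed (0.29, 0.0826) or with the libraries of that line alone (0.22, 0.0954).

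The Rag GTPases, which act as pairs of RRAGA or RRAGB with RRAGC or RRAGD, moved in both directions. RRAGC rose in MDA-MB-468 (0.79, edgeR adjusted p = 7.3e-05) and HCC38 (0.37, 0.0395), the latter lost without LNA NS replicate 2 (0.325) or KD replicate 2 (0.213), and had 0.27 in SUM149PT. RRAGD went in MDA-MB-468 from 23.4 and 22.3 CPM to 7.85 and 7.13. In SUM149PT, RRAGD was at 0.964 and 0.358 CPM under LNA NS and at 0.353 and 0.624 after knock-down. In HCC38, RRAGD was at 1.42 and 1.39 against 0.714 and 1.21 CPM. Its groups were far apart in MDA-MB-468, overlapped in SUM149PT and did not overlap in HCC38. It passed the test with a log2 fold change of −1.61 in MDA-MB-468 (edgeR adjusted p = 3.6e-05), against −0.55 and −0.59, which did not pass. Over the fits without 1 library these ran from −1.05 to 0.38 in SUM149PT and from −0.98 to −0.23 in HCC38, with a pass without LNA NS replicate 2 (edgeR adjusted p = 0.0683) and without KD replicate 2 (0.0880), respectively. The mean of −0.92 was −0.61 without LNA NS replicate 1 of SUM149PT (edgeR adjusted p = 0.0301). RRAGA had 0.10, 0.06 and 0.19, with a mean of 0.12 (edgeR adjusted p = 0.0733) that passed in only 2 of the 12 fits without 1 library (adjusted p up to 0.260 without KD replicate 1 of SUM149PT). LAMTOR1, the Ragulator subunit that anchors the Rags to the lysosome, had 0.17, −0.10 and 0.18. With RLE size factors, library size alone, at least 10 counts in every library or DESeq2, LAMTOR1 passed in MDA-MB-468 (0.19 to 0.20, adjusted p 0.0440 to 0.0883) and HCC38 (0.21 to 0.24, 0.0373 to 0.0886), and RRAGA passed in HCC38 (0.22 to 0.25, 0.0339 to 0.0825). GATOR1, the complex that turns RRAGA and RRAGB off, fell in MDA-MB-468 in all 3 subunits: the log2 fold change was −0.94 for NPRL3, −0.75 for DEPDC5 and −0.29 for NPRL2 (edgeR adjusted p = 1.8e-06, 4.4e-04 and 0.0415). NPRL3 also fell in SUM149PT (−0.36, edgeR adjusted p = 0.01096) and HCC38 (−0.29, 0.0407), the latter lost without KD replicate 1 (0.188) or LNA NS replicate 2 (0.136) and with the gene length trend removed (0.299). DEPDC5 fell in HCC38 (−0.38, edgeR adjusted p = 0.0670), lost without LNA NS replicate 2 (−0.13, adjusted p = 0.620) or KD replicate 2 (0.304) and −0.60 without LNA NS replicate 1. With the gene length trend removed, DEPDC5 passed neither there (adjusted p = 0.955) nor in MDA-MB-468 (0.183). The NPRL2 call was lost without LNA NS replicate 1 (adjusted p = 0.206) or KD replicate 2 (0.191).

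Downstream of mTORC1, RPS6KB2, the second S6 kinase, fell with log2 fold changes of −0.72 and −0.72 in MDA-MB-468 and SUM149PT (edgeR adjusted p = 6.1e-06 and 1.7e-05) and less in HCC38 (−0.24, 0.0520; 0.0121 for the difference between lines). The HCC38 call was lost without LNA NS replicate 1 (adjusted p = 0.138), KD replicate 1 (0.224) or LNA NS replicate 2 (0.137). RPS6KB1, the better known S6 kinase, had −0.07, 0.03 and −0.17 and was called nowhere. EIF4E, the cap-binding protein of translation, fell in MDA-MB-468 (−0.84, edgeR adjusted p = 9.7e-05) and SUM149PT (−0.53, 0.00555) and had −0.09 in HCC38 (0.0216 for the difference between lines).

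The 6 targets that the pathway restrains are the FOXO factors, which AKT keeps out of the nucleus, the GSK3 kinases and ULK1. FOXO4 went in MDA-MB-468 from 8.67 and 9.01 CPM to 13.6 and 12.4. In SUM149PT, FOXO4 went from 7.85 and 6.81 CPM to 12.27 and 11.11. In HCC38, FOXO4 went from 1.33 and 1.52 CPM to 2.78 and 3.37. All knock-down libraries were above the LNA NS libraries of their line, from a much lower level in HCC38. The log2 fold change was 0.56, 0.67 and 1.10 (edgeR adjusted p = 0.00624, 0.00303 and 3.5e-04). ULK1, the kinase that starts autophagy, rose by 0.86, 0.53 and 0.78 on the log2 scale (edgeR adjusted p = 8.5e-06, 0.00171 and 7.2e-05), from 23.6 to 42.1 CPM over the 6 LNA NS libraries to 33.5 to 74.4 after knock-down. FOXO3 rose in SUM149PT (0.34, edgeR adjusted p = 0.0594), a call lost without KD replicate 1 (0.136), LNA NS replicate 2 (0.505) or KD replicate 2 (0.206) and 0.54 without LNA NS replicate 1, and on average (0.24, edgeR adjusted p = 0.0134). With the gene length trend removed, FOXO3 passed in each line (0.62, 0.44 and 0.47, adjusted p up to 0.0108). FOXO1 was called in no line. In MDA-MB-468, FOXO1 was at 7.60 and 8.40 CPM under LNA NS and at 7.18 and 7.63 after knock-down. In SUM149PT, FOXO1 was at 24.5 and 18.9 against 20.6 and 19.1 CPM. In HCC38, FOXO1 was at 1.49 and 1.76 against 2.56 and 1.89 CPM. The groups overlapped in MDA-MB-468 and SUM149PT and were apart in HCC38, where the log2 fold change was 0.47 (edgeR adjusted p = 0.107) and, with the gene length trend removed, 0.72 (0.00594). It passed there also with RLE size factors, library size alone, at least 10 counts in every library or DESeq2 (0.50 to 0.53, adjusted p 0.0568 to 0.0843), without KD replicate 2 (0.66, 0.0612) and without LNA NS replicate 2 of SUM149PT (0.47, 0.0973). GSK3A rose in MDA-MB-468 (0.43, edgeR adjusted p = 6.8e-04) and SUM149PT (0.42, 0.00170) and had 0.13 in HCC38. GSK3B had 0.02, −0.17 and 0.08. It spans 273674 bp, and with the gene length trend removed its mean of −0.02 became 0.63 (edgeR adjusted p = 9.1e-09) and its values in the lines 0.99, 0.24 and 0.67, each of which passed (adjusted p up to 0.0343).

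Related members were also set against each other within each library, as the ratio of their counts, which does not depend on the scaling between libraries. For 10 such pairs, chosen after the data were seen, the difference in log2 ratio was tested by an exact two-sided permutation of treatments within lines (216 arrangements, smallest possible p = 0.00926, adjusted over the 10 pairs). The ratio of RPTOR to RICTOR, which tell mTORC1 from mTORC2, was 2.39 and 2.71 in MDA-MB-468 under LNA NS and 0.373 and 0.236 after knock-down. It went from 5.67 and 5.97 to 1.60 and 1.49 in SUM149PT and from 2.80 and 3.20 to 0.714 and 0.847 in HCC38. The ratio was thus lower in all 6 knock-down libraries than in any LNA NS library, by a mean of −2.32 on the log2 scale (exact permutation p = 0.00926, adjusted p = 0.0185). The ratio of PHLPP1 to PHLPP2 was 0.549 to 0.904 over the LNA NS libraries and 0.122 to 0.291 after knock-down (−1.72 on the log2 scale), and that of TSC2 to TSC1 went from 2.31 to 3.87 down to 0.642 to 1.41 (−1.57), both with the same exact permutation p. AKT1 against AKT2 differed by −0.50, and FOXO4 against FOXO3 by 0.53, at that p as well. For RPS6KB2 against RPS6KB1 (−0.49), GSK3A against GSK3B (0.35) and PIK3R1 against PIK3R3 (0.17) the exact permutation p was 0.0278 (adjusted p = 0.0347). PIK3CA against PIK3CB (0.28, exact permutation p = 0.0648, adjusted 0.0720) and IRS1 against IRS2 (0.25, 0.0926 and 0.0926) had lines of opposite sign. These tests were made on the same libraries as the calls above and are no separate support for them, and the 2 genes of a pair can differ in length. Their p-values, adjusted or not, take no account of the choice of the pairs after the data were seen.

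**Figure D3:**
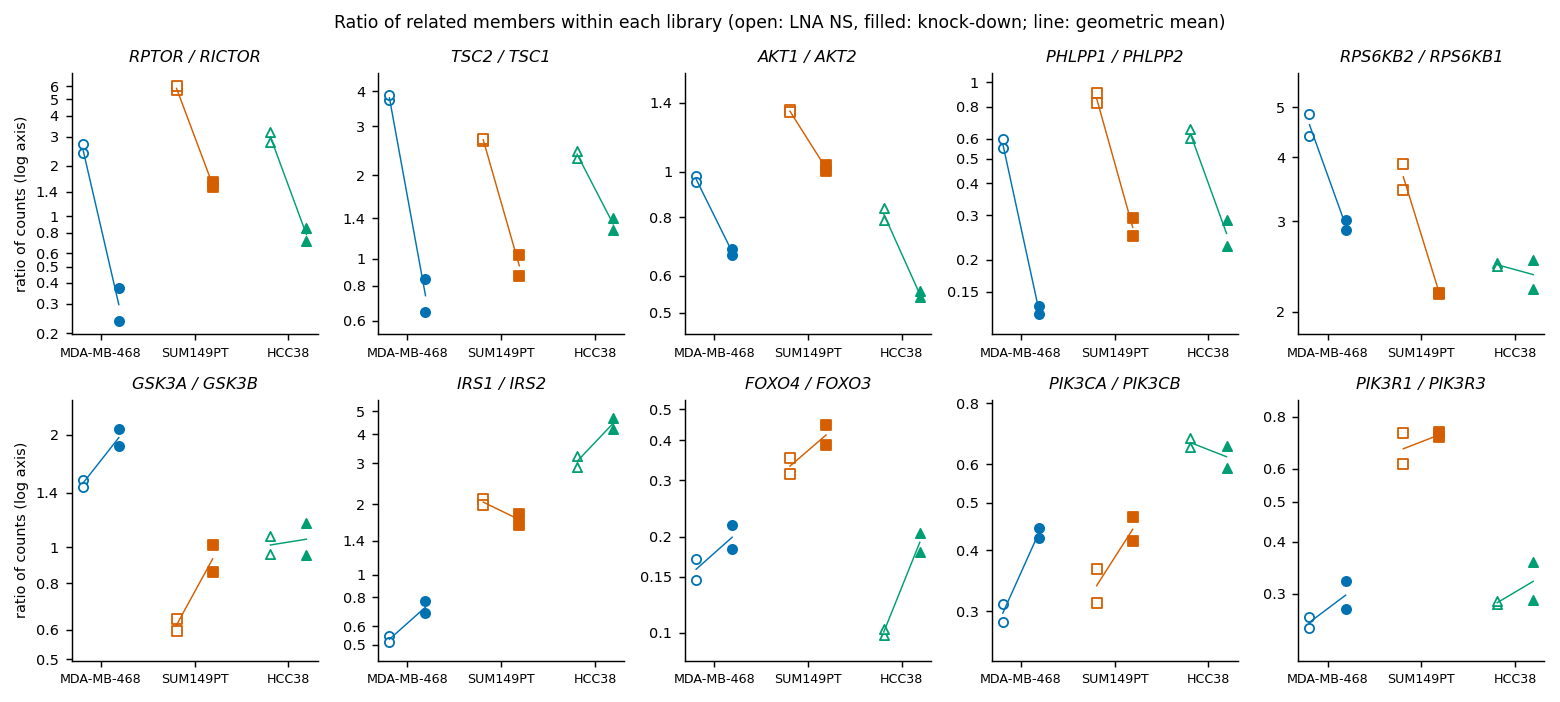
Ratio of the counts of 2 related members within each library (vertical axis, log scale) under LNA NS (open) and after knock-down (filled) in the 3 lines; lines join geometric means. The ratios of RPTOR to RICTOR, TSC2 to TSC1, AKT1 to AKT2 and PHLPP1 to PHLPP2 are lower after knock-down in each line.

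Among the LNA NS libraries, the members differed between lines about as often as all genes did: 31, 32 and 29 of the 42 were called in the 3 comparisons of lines. Under LNA NS, 16 members were higher and 15 lower in MDA-MB-468 than in SUM149PT (35.3% and 33.2% of all genes, 68.5% either way), 21 higher and 11 lower in MDA-MB-468 than in HCC38 (33.7% and 37.7%, 71.4% either way), and 15 higher and 14 lower in SUM149PT than in HCC38 (31.6% and 38.0%, 69.6% either way). These comparisons share the LNA NS libraries with the knock-down contrasts. All 6 restrained targets were higher in MDA-MB-468 than in HCC38. The 6 members with the widest range were RRAGD, PIK3CD, FOXO1, INPP5D, DEPTOR and PIK3R3, whose values are given above. RRAGD and PIK3R3 were highest in MDA-MB-468, by 5.06 and 2.72 on the log2 scale over SUM149PT (edgeR adjusted p = 6.4e-10 and 1.8e-12), as were INPP5D (3.31, 0.00380) and DEPTOR (2.80, 3.3e-04). PIK3CD and FOXO1 were highest in SUM149PT. The baseline log2 difference of PIK3CD from SUM149PT was −4.42 in MDA-MB-468 (edgeR adjusted p = 2.1e-12), and that of FOXO1 between SUM149PT and HCC38 was 3.74 (8.7e-11). RRAGA was 2.08 higher in SUM149PT than in HCC38 on that scale (edgeR adjusted p = 1.9e-11), and INPP4B 2.18 higher (5.1e-10). AKT1S1, PIK3CB and LAMTOR1 were the most even, with ranges of 0.12, 0.19 and 0.23.

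Compared per kb of exon, LAMTOR1 and RRAGA were the 2 most abundant members in each line under LNA NS. LAMTOR1 stood at 58.02, 54.95 and 49.55 CPM per kb in MDA-MB-468, SUM149PT and HCC38, and RRAGA at 32.2, 125.6 and 29.7. AKT1 was at 23.98, 20.63 and 20.01 CPM per kb and AKT2 at 17.2, 10.6 and 17.0. Within mTORC1 and mTORC2, MLST8 (14.1 to 24.9 CPM per kb) and MAPKAP1 (16.4 to 19.9) were above MTOR (8.26 to 13.4) and RPTOR (5.96 to 8.14), with RICTOR the lowest at 1.04 to 2.07. Of the PI3K catalytic subunits, PIK3CB (5.09 to 5.82) was above PIK3CA (0.687 to 1.76) in each line, and PIK3CD reached 5.80 in SUM149PT. The levels per kb depend on the exon lengths of the annotation used here, which may differ from those that were counted.

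**Figure D4:**
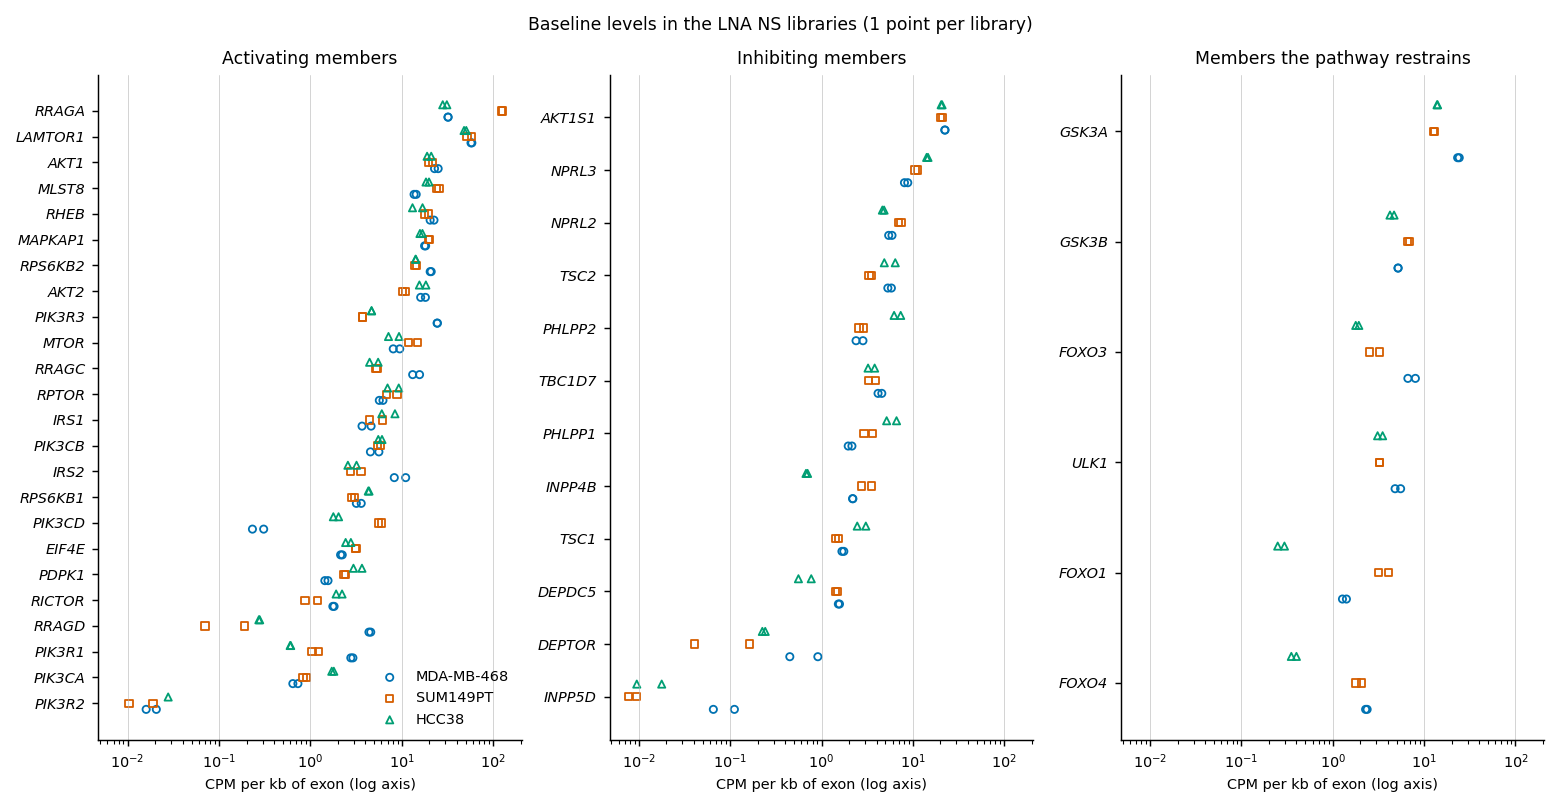
Levels of the members in CPM per kb of exon (horizontal axis, log scale) under LNA NS in MDA-MB-468 (circles), SUM149PT (squares) and HCC38 (triangles), 1 point per library; 1 HCC38 library of PIK3R2 at 0 cannot be drawn. RRAGA and LAMTOR1 stand highest, and RRAGD, PIK3CD, FOXO1, INPP5D and DEPTOR are spread widest between lines.

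Other genes of the pathway were 66 in all, of which 64 were tested. On average over the lines, 32 of the 64 rose and 19 fell, against 28.4% and 26.5% of all genes. The share that fell was near that of all genes and the share that rose was above it, a difference that was not tested. Of 8 receptors and adaptors, 4 fell and 1 rose. The 3 with the smallest p were IGF1R, the receptor of IGF1, which fell (−1.16 on average, edgeR adjusted p = 1.7e-08), and the adaptors GAB1 (−1.05, 1.7e-07) and GAB2 (−1.10, 5.0e-06). EGFR, which MDA-MB-468 expresses at 5056 and 6055 CPM under LNA NS, was at 2967 and 2634 CPM there after knock-down (−0.99, edgeR adjusted p = 9.2e-05). EGFR also fell in SUM149PT (−0.68, edgeR adjusted p = 0.00370) and had −0.10 in HCC38, which did not pass (0.706; 0.0219 for the difference between lines). Of 7 inhibitors induced by stress, 5 rose and 1 fell. The sestrins SESN3 (mean 1.56, edgeR adjusted p = 3.2e-08) and SESN2 (0.89, 7.2e-09), which hold back GATOR2, rose in each line. Of 7 tested genes known as FOXO targets, 6 rose and 1, the catalase gene CAT, fell (−0.47, edgeR adjusted p = 9.8e-07). By line, 6 rose and 1 fell in MDA-MB-468, 3 rose and 2 fell in SUM149PT, and 5 rose in HCC38, and 6 of the 7 differed between lines. The 2 with the smallest p were CITED2 (1.07, edgeR adjusted p = 9.5e-10), a transcriptional regulator, and BCL2L11 (0.99, 2.2e-09), which encodes the cell death protein BIM. Of 5 genes of the AMPK arm 4 rose on average, with PRKAB1 first (0.77, edgeR adjusted p = 2.5e-08). By line, 2 of them rose and 1 fell in MDA-MB-468, 4 rose in SUM149PT and 2 in HCC38. The kinase SGK1 rose (0.96, edgeR adjusted p = 4.6e-09) and SGK3 fell (−0.63, 0.00300). INPP4A, the relative of INPP4B, fell (−1.31, edgeR adjusted p = 6.5e-09), while the lipid phosphatases INPPL1 (0.28, 7.4e-04) and INPP5E (0.36, 7.1e-05) rose.

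Of 6 translation targets of mTORC1, 3 rose and 2 fell. Of 6 other Ragulator and Rag genes, 3 rose and 2 fell, with RRAGB up (0.51, edgeR adjusted p = 1.9e-05). Of 5 GATOR2 subunits 1 rose and 2 fell, WDR59 most (−0.72, edgeR adjusted p = 2.6e-08). The folliculin and TFEB list had 3 up and 1 down. FLCN, the folliculin gene that acts on RRAGC and RRAGD, rose (0.63, edgeR adjusted p = 4.2e-07) and TFEB, a transcription factor of lysosome genes, fell (−0.75, 3.0e-06). Of 2 other mTORC2 subunits, PRR5L fell (−0.75, edgeR adjusted p = 3.8e-06) and PRR5 rose (0.22, 0.0217). Of 4 other PI3K genes 2 rose, PIK3C2A (0.52, edgeR adjusted p = 1.4e-05) and PIK3C3 (0.22, 0.00595). STK11, the kinase upstream of AMPK, was at 0.536 and 1.01 CPM in SUM149PT under LNA NS, against 92.0 and 95.6 in MDA-MB-468 and 72.8 and 69.2 in HCC38.

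Gene length moved with the knock-down change. Across the 42 members, Spearman's rho of gene span with the log2 fold change was −0.32, −0.06 and −0.24 in the lines in the same order, against −0.22, −0.09 and −0.28 across the 20686 tested genes with a position; genes of a library share its depth and are not independent. The 20 members that fell on average had a median span of 58631 bp and the 10 that rose one of 31209 bp, against 43571 and 19265 bp for all genes. With the trend removed, 27 of the 30 calls on average remained in the same direction, and 26 of 29 in MDA-MB-468, 21 of 24 in SUM149PT and 15 of 20 in HCC38. INPP4B and MAPKAP1 were called in the opposite direction on average. Whether gene length has a part in the changes of single members was not tested.

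**Figure D5:**
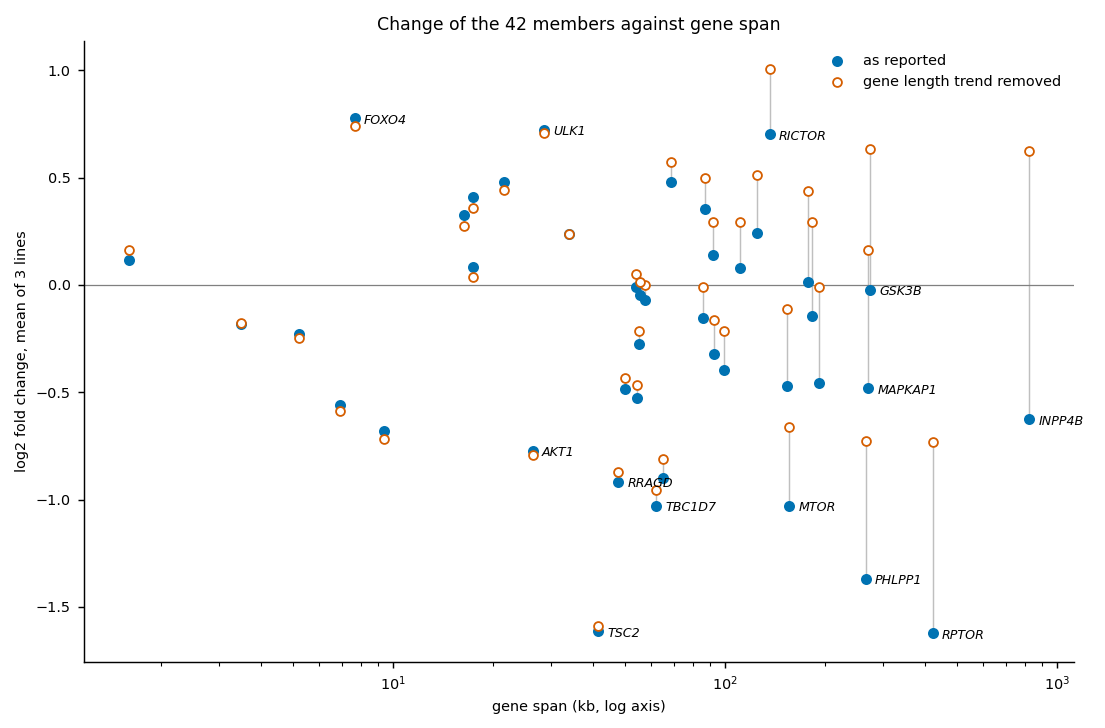
Mean log2 fold change over the 3 lines (vertical axis) against gene span in kb (horizontal axis, log scale) for the 42 members, as reported (filled) and with the gene length trend removed (open), joined by a line for each member. Values of TSC2, FOXO4 and ULK1 hardly move, while RPTOR and PHLPP1 move toward 0 and INPP4B and MAPKAP1 cross it.

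Exons of some members are shared with other genes. On the opposite strand this holds for 23.7% of the exon bases of PDPK1, 19.8% of those of PIK3CA, 14.1% of NPRL3 and 11.0% of PHLPP2. The library kit marks strand, but no source used here gives the strand setting of the counting, so reads of the opposite strand may be among these counts. On the same strand, 8.3% of the exon bases of GSK3A and 6.8% of TBC1D7 are shared.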

How the data were processed

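Poly-A selected RNA of 12 libraries, 2 for each of 6 groups (3 cell lines, LNA NS or knock-down), was sequenced. The authors aligned reads to GRCh37 and deposited raw HTSeq counts per gene, 1 table per library. The study's methods name STAR as the aligner, whereas the submitters' processing notes name TopHat2 2.0.13 along with HTSeq 0.6.0. The annotation release and the strand setting are not given in the sources used here. Summary lines, which name no gene, held 40.8 to 53.7% of the counts and did not enter library sizes. The remaining 63677 genes had 32187835 to 56191152 counts per library, and 55665 had a position in GENCODE lifted to GRCh37.

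Counts were fitted with edgeR 4.0.16 (quasi-likelihood test, limma 3.58.1, R 4.3.3) in 1 model of the 6 groups, with TMM scaling and filterByExpr (minimum count 10, minimum total 15), which left 6 residual degrees of freedom. Genes with an adjusted p under 0.1 (Benjamini-Hochberg over 21325 genes) were called. CPM are TMM-normalized. Ratios of 2 members took 0.5 counts added to each and were tested by exact permutation. Figures and ratios were made in Python 3.11.15.

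The members and lists were chosen with earlier results of these data known. Values of every library are given for members called with over 2-fold change in a line, called in opposite directions, or among the 6 with the widest baseline range. Of each list of other genes, up to 3 with the smallest p on average are named; a few named further were chosen after their values were seen. Some genes counted in these lists are not reported here by name. Alternatives were RLE size factors, library size alone, no filter, at least 10 counts in every library, DESeq2 1.42.0, a replicate block, the libraries of a comparison alone, removal of the gene length trend, and leaving out each library. The code was tested on simulated data.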

Additional observations from a re-analysis of the deposited data

Results flagged for a closer look

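For 19 of the 42 members, the change after knock-down differed between the 3 cell lines by edgeR's test of that difference (adjusted p under 0.1, against 32.4% of all genes tested). Among PI3K subunits and substrates, the adjusted p was 0.00262 for PIK3CA, 0.00242 for PIK3R1, 8.53e-05 for PIK3R3 and 0.0557 for IRS1. PIK3CA was called higher in MDA-MB-468 and SUM149PT and lower in HCC38, PIK3R1 and PIK3R3 were called in MDA-MB-468, and IRS1 in MDA-MB-468 and HCC38. For the AKT kinases and PDPK1, it was 0.0158 for AKT1, 0.0196 for AKT2 and 0.0289 for PDPK1 in the same test of edgeR. Of the mTOR complex subunits, MTOR (edgeR adjusted p = 0.0426), RPTOR (0.00260), MLST8 (0.0297) and MAPKAP1 (0.00237) had their lowest log2 fold change in MDA-MB-468.

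The adjusted p for the difference was 0.0765 for RRAGC, 0.0936 for RRAGD, 0.0121 for RPS6KB2 and 0.0216 for EIF4E (edgeR). Of the inhibiting members, it was 0.0316 for TSC1, 0.00702 for TSC2, 0.0431 for DEPTOR and 0.00604 for NPRL3. TSC2 and NPRL3 fell in every line and most in MDA-MB-468, TSC1 fell in HCC38, and DEPTOR rose in SUM149PT. None of the 6 restrained targets differed between lines by this test, which does not show that they moved alike.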

How the results depend on the processing

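Over the alternatives, the 42 members gave 3297 values in the lines and on average, of which 82 lost a call, 62 gained one and 67 changed sign. Of the calls, 23 of 29 in MDA-MB-468, 17 of 24 in SUM149PT, 11 of 20 in HCC38 and 27 of 30 on average passed in every setting, whatever the direction. These include calls that turned from a fall to a rise with the gene length trend removed: INPP4B in MDA-MB-468, in HCC38 and on average, and MAPKAP1 on average. Over the fits without 1 library, 7 to 9 members rose and 19 to 21 fell in MDA-MB-468, 6 to 8 and 13 to 17 in SUM149PT, 3 to 6 and 12 to 15 in HCC38, and 8 to 10 and 20 to 21 on average, and 14 to 21 differed between lines. The lowest count in HCC38, 3, came without KD replicate 1. The members that rose in HCC38 numbered 8 with RLE size factors, library size alone, at least 10 counts in every library or DESeq2. With the gene length trend removed, 15 rose in MDA-MB-468, 11 in HCC38 and 16 on average. Rises were also more frequent over all genes with that trend removed. They made up 56.8% of 10835 calls in MDA-MB-468, 57.9% of 7207 in HCC38 and 58.7% of 11932 on average, against 49.2%, 45.8% and 51.8% of calls as tested.

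With that trend removed, the sign turned for PIK3CB (0.30 on average, 0.43 in MDA-MB-468, 0.0539 in HCC38), MAPKAP1 (0.16 on average, 0.0654 in MDA-MB-468, 0.50 in HCC38), INPP4B (0.62 on average; 0.98, 0.53 and 0.36 in MDA-MB-468, SUM149PT and HCC38), and, on average, RHEB (0.0488), TSC1 (0.0144) and GSK3B (0.63; 0.24 in SUM149PT). Of the 21 values that turned, 10 were called with the trend removed, and the 11 others had absolute values of up to 0.222. Means near 0 also turned for RHEB with library size alone or at least 10 counts in every library (0.0227 and 0.0212) and for GSK3B (0.0120 and 0.0104). Over the fits without 1 library, the mean lay between −0.0743 and 0.0480 for RHEB, −0.1021 and 0.0014 for TSC1, −0.2288 and 0.4186 for DEPTOR, −0.0195 and 0.1434 for FOXO1, and −0.0614 and 0.0030 for GSK3B; the cause was not tested.

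With the replicate number as a block, 9 members rose and 20 fell in MDA-MB-468, 8 and 15 in SUM149PT, 5 and 13 in HCC38 and 9 and 20 on average, and 17 differed between lines; the block ended calls of MLST8, RRAGA, RPS6KB2 and DEPDC5. Deviations of same-numbered libraries correlated at −0.039, 0.253 and −0.329 in MDA-MB-468, SUM149PT and HCC38 (14833 genes). With 2 libraries a group, these values do not settle whether the numbers pair the libraries. With the pairing crossed in HCC38, chosen after seeing the data, 6 rose and 15 fell there. Depth limits PIK3R2 and INPP5D, at 0 to 11 and 0 to 28 counts, and also DEPTOR, at 4 to 90 counts, which was called in SUM149PT. With 2 libraries a group the spread is shared over all groups.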
